A study of Mus musculus with 15 samples.

Results

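The 46 genes described here encode the enzymes and transporters of glycolysis, the pentose phosphate pathway and the tricarboxylic acid (TCA) cycle, together with Acod1, the itaconate-producing enzyme, and Hif1a, a hypoxia-inducible transcription factor. They were taken by symbol from a pathway list drawn up with earlier results of these data known, with no threshold on their values, and they took 47 of the 55335 rows of the deposited table because Aldoa had 2 identifiers. The RNA came from tumor-associated macrophages (TAMs) of C57BL/6 mice bearing orthotopic hepatocellular carcinoma (HCC), grown from Hepa1-6 hepatoma cells placed in the liver and sorted by FACS with CD11b and F4/80. The tumor cells were control cells, cells with lentiviral overexpression of miR-144 or cells with lentiviral overexpression of miR-451a, with 5 samples in each of the 3 groups and 15 in all. The miRNAs were thus overexpressed in the tumor cells, while the RNA measured was that of the sorted macrophages. The labels did not say that the samples came from separate mice, and the study's legend for this experiment gives fewer replicates a group than were deposited, so whether all 5 are independent is not known. The p-values measure only the spread between samples, which may be technical. The comparisons ask how the metabolic genes of TAMs differed when the tumor cells carried either miRNA.

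Glycolysis turns glucose into pyruvate. Pyruvate is then reduced to lactate by lactate dehydrogenase or enters the mitochondrial TCA cycle through the pyruvate dehydrogenase complex, which pyruvate dehydrogenase kinases switch off by phosphorylation. The oxidative branch of the pentose phosphate pathway makes NADPH, and its other branch makes and recycles ribose phosphates. Inflammatory activation of macrophages is known to raise glycolysis and to divert the TCA intermediate cis-aconitate into itaconate, and HIF-1 is a known activator of many glycolytic genes.

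The mature miRNAs that name the groups are shown because the 3 groups differed by them. They are neighbors on mouse chromosome 11 in RefSeq (GRCm38.p6, plus strand), miR-144-5p at chr11:78073010-78073032, miR-144-3p at chr11:78073047-78073066 and miR-451a at chr11:78073186-78073207. The capitals mark the seed, bases 2 to 8. The labels did not name the arm of miR-144, so both are given, and the 3 seeds differed from each other.
mmu-miR-144-3p: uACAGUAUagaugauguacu
mmu-miR-144-5p: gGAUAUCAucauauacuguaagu
mmu-miR-451a: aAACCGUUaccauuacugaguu

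FPKM values, fragments per kilobase of transcript and per 1000000 mapped fragments, were deposited for every gene and sample. The smallest differences between low values put the depth, in units of 1000000 fragments, at about 23.7 to 27.7 in the control samples, 17.9 to 27.2 in the miR-144 samples and 15.6 to 30.4 in the miR-451a samples. Each library correlated with the others of its group at a mean r of 0.985 to 0.990 across genes. The 50 highest genes took 36.8% to 37.8% of FPKM in the control samples and 32.8% to 34.4% in the miRNA groups. Mitochondrially encoded genes took 7.29% to 7.89% and 6.18% to 7.12%. All 11 macrophage markers were above 1 FPKM on average, and their summed level was 10693 to 11617 FPKM in the control samples, 19125 to 20779 in the miR-144 samples and 19082 to 19932 in the miR-451a samples. Of these markers 10 were called higher and Cd68 lower (1444, 919 and 910 FPKM) in each comparison, and most of the sum was Lyz2 (6894, 13171 and 12581 FPKM). Of the 9 hepatocyte markers, 7 were listed at 0 in every sample, and Cd3e, Cd3g, Krt8, Krt18 and Epcam were also at 0. Other marker lists moved with the groups. The summed monocyte list was 4016 to 5783 FPKM in the control samples and 9.94 to 15.1 in the miRNA groups, nearly all of it from Chil3, which had a mean of 4789 FPKM in the control group and of 0.352 and 0.431 in the miR-144 and miR-451a groups, while Plac8 had means of 3.05, 8.46 and 7.19 FPKM in the control, miR-144 and miR-451a groups, Vcan of 1.34, 2.94 and 2.84, Ccr2 of 0.161, 1.05 and 1.39 and Ly6c2 of under 1 in each. Of the 3 monocyte markers tested, 2 were called higher and 1 lower in each comparison. The summed fibroblast and stellate cell list was 108 to 134 FPKM in the control samples, 144 to 212 in the miR-144 samples and 183 to 234 in the miR-451a samples, with 6 of its 7 genes at a mean of at least 1 FPKM and Lrat at 0. Of its 6 tested genes 4 were called higher in the miR-144 comparison and 6 in the miR-451a comparison, with none lower. The summed list of dividing cells was 74.4 to 85.4 FPKM in the control samples, 52.9 to 56.5 in the miR-144 samples and 52.5 to 56.1 in the miR-451a samples. Most of that sum was Pcna, with means of 61.8, 39.6 and 36.8 FPKM, and of the 7 dividing cell markers tested 2 were called higher and 3 lower in the miR-144 comparison and 3 higher and 3 lower in the miR-451a comparison. The T and NK cell list summed to 1.53 to 1.93 FPKM in the control samples, 5.77 to 8.97 in the miR-144 samples and 5.45 to 9.57 in the miR-451a samples, mostly Cd4. The B and plasma cell list summed to 0.147 to 0.493, 1.21 to 1.46 and 1.29 to 1.84 FPKM, mostly Cd79b. The neutrophil list summed to 64.9 to 79.2, 46.4 to 52.3 and 44.3 to 53.3 FPKM, mostly Csf3r. The endothelial list summed to 3.70 to 4.30, 4.68 to 5.08 and 4.69 to 5.94 FPKM, mostly Kdr. The dendritic cell list stayed under 1 FPKM, at 0.300 to 0.420, 0.667 to 0.868 and 0.548 to 0.871. The part of these markers and of the library measures in the results on the metabolic genes was not tested, and in bulk RNA a change in the number of cells and a change in RNA per cell cannot be told apart.

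The metabolic genes moved in both directions, with more falls than rises, and none differed between the miRNA groups beyond the test's threshold. Levels were compared on the log2(FPKM + 1) scale with limma over 11419 genes, those averaging 1 FPKM or more in all samples, and a gene was called at an adjusted p under 0.05. Of the 47 rows, 46 passed that filter, the exception being the second Aldoa identifier, whose group means were 0.222 to 0.344 FPKM. In the miR-144 group, 14 of 46 members were higher than in the control group and 23 were lower (30.4% of the members were higher), where 47.1% of all tested genes were higher and 20.1% were lower. In the miR-451a group, 14 were higher (30.4%) and 22 lower (47.8%), where 48.1% of all tested genes were higher and 20.3% were lower. The median log2 fold change of the members was -0.19 in the miR-144 group and -0.17 in the miR-451a group, and that of all tested genes was 0.13 and 0.14. Because the median gene rose, the split depended on the scaling. After centring each sample on its median, 10 members were higher (21.7%) and 30 lower (65.2%) in either comparison, where 30.8% and 31.3% of all tested genes were higher and 30.7% and 31.8% lower. After rescaling to TPM 17 were higher and 21 lower in the miR-144 group and 19 were higher and 19 lower in the miR-451a group, where 53.7% and 55.6% of all tested genes were higher and 16.4% and 16.3% lower. In both comparisons and under all 4 scalings, 9 members rose (Aldoc, Eno3, Fh1, Gpi1, Hif1a, Pdk1, Pfkl, Pfkm and Suclg2) and 18 fell. These were 19.6% and 39.1% of the members, where 27.7% of all tested genes rose and 14.7% fell by the same requirement.

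**Figure D1:**
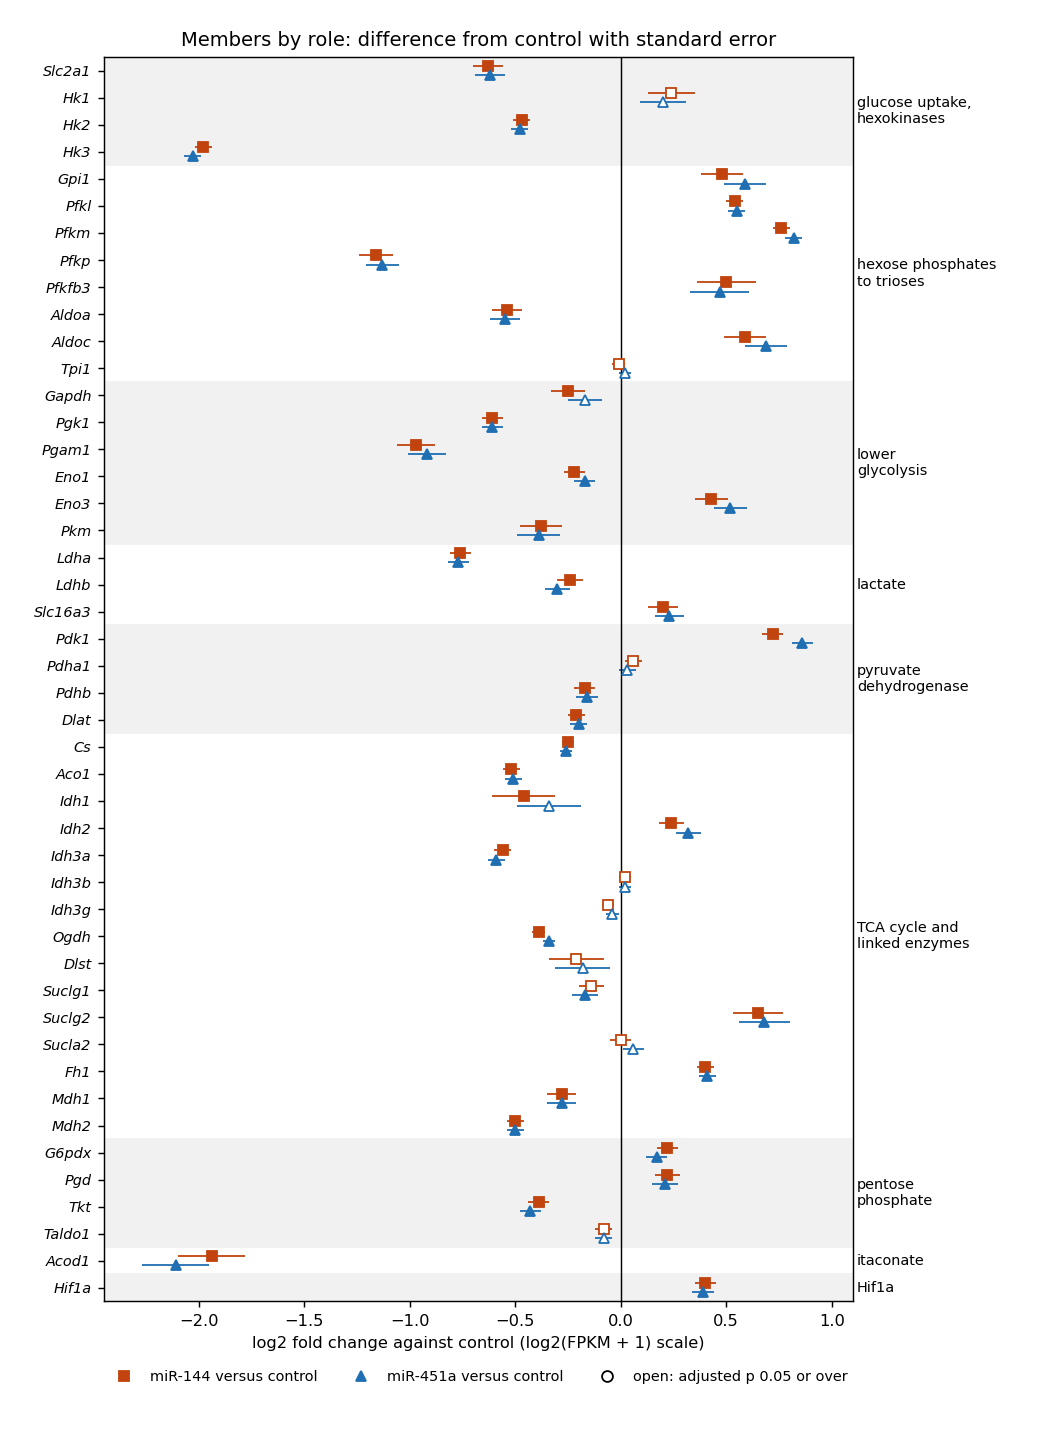
Log2 fold change of each member against control on the log2(FPKM + 1) scale, by role; squares are miR-144, triangles miR-451a, bars the standard error, and open symbols did not pass the test. The square and the triangle of a gene lie close together, Hk3 and Acod1 lie near -2.0, and Pfkm and Pdk1 have the largest rises.

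The entry of glucose into glycolysis was represented by 4 members, of which 3 fell in both miRNA groups, where 20.1% and 20.3% of all tested genes fell. Hk3, a hexokinase abundant in myeloid cells, was lower in both miRNA groups. Its FPKM was 187, 181, 199, 183 and 181 in the control samples, 44.9, 46.6, 45.4, 47.3 and 48.3 in the miR-144 samples and 44.7, 44.4, 44.8, 41.9 and 48.8 in the miR-451a samples. The groups were far apart, and the control mean was 4.01 times the miR-144 mean and 4.15 times the miR-451a mean (log2 fold changes -1.98 and -2.03, SE 0.04, adjusted p = 3.84e-15 and 2.67e-15, limma). Slc2a1, which encodes the glucose transporter GLUT1, was at 13.7, 12.9, 13.7, 14.0 and 14.1 FPKM in the control samples, 9.76, 8.93, 7.79, 6.94 and 9.32 in the miR-144 samples and 9.07, 8.35, 7.85, 8.74 and 8.61 in the miR-451a samples. No sample of either miRNA group reached the lowest control sample, and the mean was 1.60 times higher in the control group than in either (adjusted p = 1.19e-06 and 1.20e-06). Hk2, the inducible hexokinase, was at 15.1, 14.8, 15.6, 14.5 and 14.2 FPKM in the control samples, 11.2, 10.9, 10.3, 9.63 and 10.2 in the miR-144 samples and 11, 10.1, 9.92, 10.4 and 10.4 in the miR-451a samples. Its groups did not overlap with the control group either (log2 fold changes -0.47 and -0.48, SE 0.04). Hk1, the housekeeping hexokinase, did not pass the test at means of 13.0, 15.5 and 15.1 FPKM in the control, miR-144 and miR-451a groups (adjusted p = 0.0691 and 0.130). It was called higher in both under TPM (adjusted p = 0.0242 and 0.0397) and with the replicate number as a block (adjusted p = 0.0156 and 0.0375), and in one or both comparisons in some fits without 1 sample. Outside the members, the neuronal-type glucose transporter Slc2a3 was low, at a mean of 0.465 FPKM in the control group against 1.17 and 1.16, and was higher in both miRNA groups (log2 fold changes 0.57 and 0.56 in the fit with no filter).

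**Figure D2:**
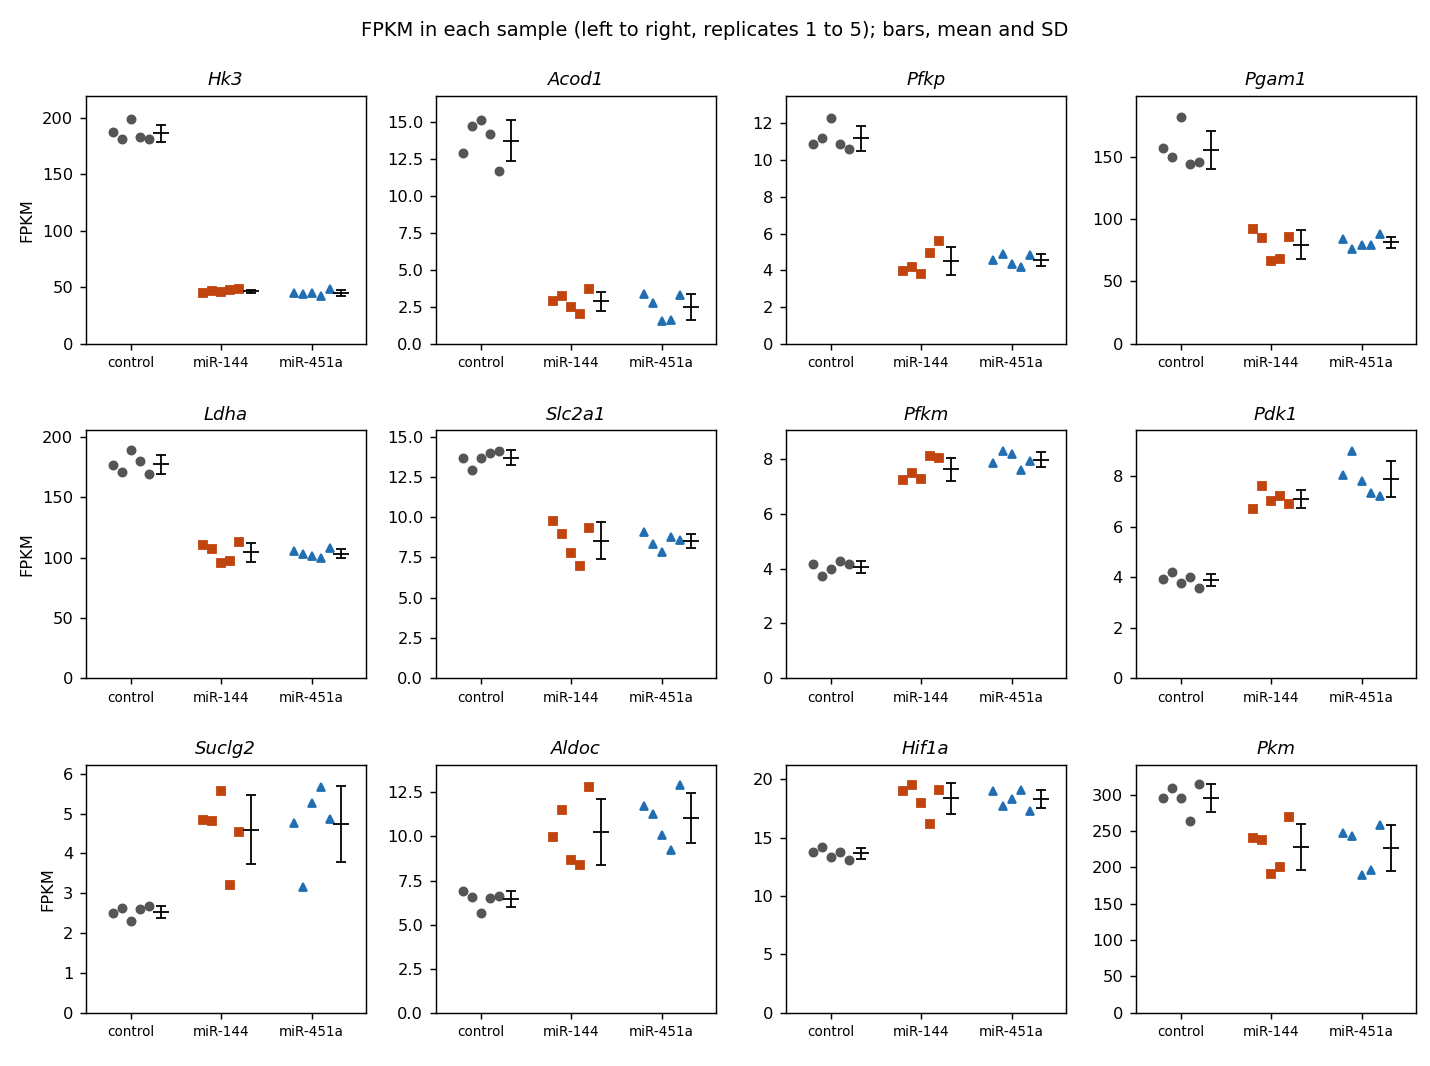
FPKM of 12 members in each sample, replicates 1 to 5 from left to right within a group, with the mean and SD beside them. Hk3 stood at 181 to 199 in the control samples and at 41.9 to 48.8 in the miRNA groups, Pfkm, Pdk1, Suclg2, Aldoc and Hif1a were higher in all 10 miRNA samples than in any control sample, and replicates 3 and 4 of both miRNA groups had the lowest Pkm.

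The 8 tested members from glucose 6-phosphate to the triose phosphates included 5 that rose (62.5%, against 47.1% and 48.1% of all tested genes) and 2 that fell in both comparisons, where 20.1% and 20.3% of all tested genes fell. Isozymes of the same step went opposite ways. Phosphofructokinase, the committed step of glycolysis, has liver (Pfkl), muscle (Pfkm) and platelet (Pfkp) forms. Pfkm was at 4.18, 3.72, 4.0, 4.28 and 4.18 FPKM in the control samples, 7.22, 7.49, 7.26, 8.10 and 8.03 in the miR-144 samples and 7.85, 8.30, 8.19, 7.60 and 7.91 in the miR-451a samples. Pfkl was at 7.07, 7.21, 8.56, 7.06 and 7.38 FPKM in the control samples, 11.2, 11.4, 11.1, 11.2 and 11.6 in the miR-144 samples and 11.5, 11.1, 11.9, 11.5 and 10.7 in the miR-451a samples. Pfkp went the other way, from 10.9, 11.2, 12.3, 10.9 and 10.6 FPKM to 3.96, 4.18, 3.81, 4.95 and 5.61 in the miR-144 samples and 4.56, 4.91, 4.34, 4.16 and 4.84 in the miR-451a samples. None of the 3 overlapped between the control group and either miRNA group. Pfkm rose 1.87- and 1.96-fold (log2 fold changes 0.76 and 0.82, SE 0.04, adjusted p = 2.86e-10 and 1.15e-10) and Pfkl 1.51- and 1.52-fold, and the control mean of Pfkp was 2.48 and 2.45 times the miRNA means (log2 fold changes -1.16 and -1.13, SE 0.08).

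Gpi1, the glucose 6-phosphate isomerase, was at 45.6, 35.5, 35.4, 43.1 and 45.8 FPKM in the control samples, 57.9, 65.2, 57.3, 44.9 and 62.7 in the miR-144 samples and 63.5, 64.7, 56.9, 60.4 and 64.7 in the miR-451a samples. It rose in both groups (1.40- and 1.51-fold), and 1 miR-144 sample lay within the control range. Aldoc, the aldolase form best known from brain, was at 6.88, 6.57, 5.66, 6.49 and 6.61 FPKM in the control samples, 9.96, 11.5, 8.69, 8.40 and 12.8 in the miR-144 samples and 11.7, 11.3, 10.1, 9.22 and 12.9 in the miR-451a samples. It rose 1.60- and 1.72-fold, without overlap with the control group. Aldoa, the main aldolase of these cells, fell from a mean of 276 ± 6.24 FPKM (SD, n = 5) to 190 ± 19.1 and 189 ± 17.3. Pfkfb3, which makes the phosphofructokinase activator fructose 2,6-bisphosphate, was at 4.99, 3.89, 4.51, 4.23 and 8.80 FPKM in the control samples, 7.89, 8.07, 7.49, 6.95 and 7.55 in the miR-144 samples and 8.59, 7.61, 6.92, 6.56 and 7.59 in the miR-451a samples. One control sample was above every miRNA sample, and the rise passed with it (log2 fold changes 0.50 and 0.47, SE 0.14, adjusted p = 0.00659 and 0.00897) and without it (0.67 and 0.64). The miR-451a call of Pfkfb3 was lost after median centring (0.33, adjusted p = 0.0540) and quantile normalization (0.33, adjusted p = 0.0553). Tpi1, the triose phosphate isomerase, did not pass, with 95% intervals of the log2 difference of -0.08 to 0.06 and -0.05 to 0.09, although it was lower in both comparisons after median centring and higher in the miR-451a comparison under TPM (0.11, adjusted p = 0.00848).

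The make-up of isozyme families was compared as a percentage of the summed FPKM of the family in each sample. This percentage is unchanged by a factor common to all genes of a sample. Quantile normalization could change it, and the percentages were not computed under it. Hk3 made up 87.0% ± 0.802 (SD, n = 5) of hexokinase FPKM in the control group, 64.2% ± 2.16 in the miR-144 group and 63.8% ± 1.23 in the miR-451a group, while Hk1 went from 6.08% to 21.4% in both and Hk2 from 6.93% to 14.4% and 14.8%. Pfkp made up 49.2% ± 1.08 of phosphofructokinase FPKM in the control group and 19.1% in both miRNA groups (SD 2.10 and 1.30). Pfkl took the largest share there, 48.3% and 47.5% against 32.8% in the control group, and Pfkm 32.5% and 33.4% against 18.0%. Aldoc rose from 2.28% to 5.10% and 5.5% of aldolase FPKM and Eno3 from 3.11% to 5.30% and 5.47% of the summed Eno1 and Eno3 FPKM. Ldhb rose from 3.05% to 4.19% and 4.02% of lactate dehydrogenase FPKM, although its own level fell. Idh2 rose from 6.82% to 10.7% and 10.5% of the 2 NADP-dependent isocitrate dehydrogenases, and Sucla2 fell from 75.5% to 63.2% and 63.6% of the 2 succinyl-CoA ligase beta subunits. The percentage of Hk2 rose while its own level fell. Those of Hk1, which rose, and of Sucla2, which fell, changed while the gene's own level did not pass the test. The percentages within a family are tied to each other, so the 11 are not separate results. All 11 percentages differed from control in both miRNA groups in a two-sided exact permutation test, with p = 0.00794, the smallest that 5 samples against 5 can give, and an adjusted p of 0.0125 over 33 tests, except Ldhb in the miR-144 group (exact permutation p = 0.0159, adjusted p = 0.0238). Between the miRNA groups none of the 11 passed, and the smallest exact permutation p was 0.0556, for Pfkm (adjusted p = 0.0797).

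**Figure D3:**
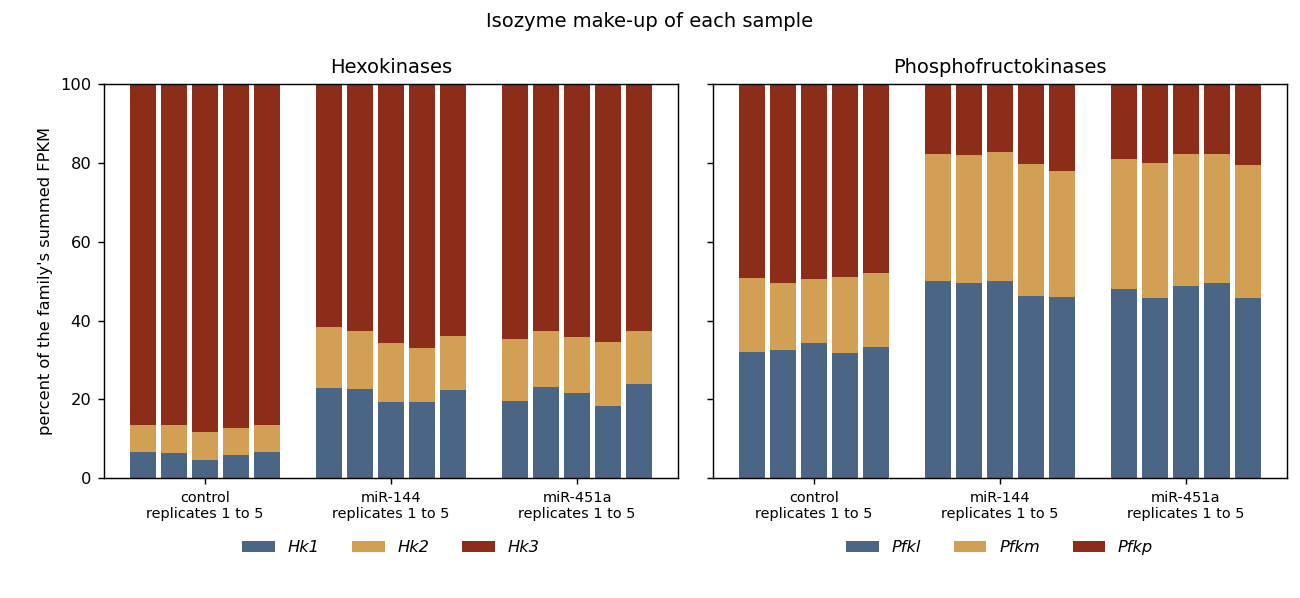
Percent of summed FPKM of the hexokinases and of the phosphofructokinases in each of the 15 samples, 1 bar per sample. Hk3 was 86.5% or more in every control sample and at most 66.9% in the miRNA groups, and Pfkp fell from 47.7% or more to at most 22.2%.

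Of the 6 members of lower glycolysis, from glyceraldehyde 3-phosphate to pyruvate, 5 fell and 1 rose in the miR-144 group, and 4 fell and 1 rose in the miR-451a group. Over all tested genes 20.1% and 20.3% fell and 47.1% and 48.1% rose. Pgam1, the phosphoglycerate mutase, was at 157, 150, 182, 144 and 146 FPKM in the control samples, 92.1, 85.2, 66.7, 67.8 and 86.1 in the miR-144 samples and 83.9, 76.1, 79.1, 79.5 and 88.1 in the miR-451a samples. Its groups did not overlap, and the control mean was 1.96 and 1.91 times the miRNA means (log2 fold changes -0.97 and -0.92, SE 0.09). Pgk1, the phosphoglycerate kinase, fell from 135 ± 5.19 FPKM (SD, n = 5) to 88.4 ± 7.28 and 88.1 ± 2.86. Gapdh, the glyceraldehyde 3-phosphate dehydrogenase that many assays use as a reference gene, was at 169, 143, 175, 161 and 155 FPKM in the control samples, 127, 142, 148, 127 and 132 in the miR-144 samples and 162, 129, 130, 159 and 134 in the miR-451a samples. Its groups overlapped, and it was called lower in the miR-144 comparison (log2 fold change -0.25, SE 0.08, adjusted p = 0.00975), a call that quantile normalization and TPM ended (adjusted p = 0.350 and 0.0553). The miR-451a difference of Gapdh was -0.17 (adjusted p = 0.0533), and it passed after median centring (-0.32, adjusted p = 0.00193) and without control replicate 2, miR-451a replicate 1 or miR-451a replicate 4 (adjusted p = 0.0164 to 0.0232). It was smaller after quantile normalization (-0.01, adjusted p = 0.895) and under TPM (-0.09, adjusted p = 0.301).

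Pkm, the pyruvate kinase, had the highest mean level of all members in every group. It was at 296, 309, 295, 264 and 315 FPKM in the control samples, 241, 238, 191, 201 and 270 in the miR-144 samples and 248, 243, 189, 197 and 259 in the miR-451a samples. Pkm fell by 0.38 and 0.39 on the log2 scale (SE 0.10, adjusted p = 0.00433 and 0.00381), calls that quantile normalization ended (adjusted p = 0.146 and 0.107). The lowest control sample lay within the miR-144 range. Gene-level FPKM does not separate the PKM1 and PKM2 forms. Eno1, the common enolase, fell from 73.3 ± 1.76 FPKM to 62.9 ± 3.54 and 65.3 ± 4.22, the latter call ending under TPM (adjusted p = 0.129). Eno3, the muscle form, rose from 2.35 ± 0.317 to 3.52 ± 0.487 and 3.78 ± 0.361. Several of these genes share sequence with gene copies, so their FPKM depends on how fragments were divided. Of the 50-base stretches of the longest transcript in GENCODE M21, 72.2% of those of Eno1, 68.0% of Pgk1, 41.5% of Pgam1, 34.4% of Pkm, 27.2% of Gapdh, 27.0% of Ldhb and 21.8% of Suclg2 also occurred in another gene. The copy Pgam1-ps2 was itself listed at a mean of 126, 60.4 and 61.0 FPKM in the control, miR-144 and miR-451a groups, and Pgk1-rs7 at 19.6, 13.6 and 13.1. Eno1b was at 15.4, 16.3 and 16.6 FPKM.

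Ldha, the lactate dehydrogenase subunit that favors lactate formation, was at 177, 171, 189, 180 and 169 FPKM in the control samples, 110, 107, 95.6, 96.8 and 113 in the miR-144 samples and 105, 103, 101, 99.5 and 108 in the miR-451a samples. The groups were well separated, and the control mean was 1.70 and 1.72 times the miRNA means (log2 fold changes -0.76 and -0.77, SE 0.05, adjusted p = 1.89e-09 and 1.46e-09). Ldhb, the other subunit, fell from 5.58 ± 0.590 FPKM (SD, n = 5) to 4.55 ± 0.362 and 4.32 ± 0.257. Slc16a3, the lactate exporter MCT4, was higher at 7.53 ± 0.630 and 7.75 ± 0.528 FPKM against 6.46 ± 0.730, but its calls were lost after median centring (log2 fold changes 0.06 and 0.09, adjusted p = 0.476 and 0.288), after quantile normalization, and in the miR-144 comparison also without control replicate 4 or without any 1 of miR-144 replicates 1, 2 and 5 (adjusted p = 0.0522 to 0.0630). Among the listed genes of lactate and pyruvate handling outside the members, 5 of 14 rose (35.7%, against 47.1% and 48.1% of all tested genes) and 9 fell (64.3%, against 20.1% and 20.3%) in each comparison. Slc16a7, the monocarboxylate transporter MCT2, was at 1.24, 2.99, 1.25, 1.26 and 1.13 FPKM in the control samples, 5.55, 2.18, 7.10, 7.02 and 5.68 in the miR-144 samples and 6.26, 2.36, 6.98, 7.21 and 5.67 in the miR-451a samples. It rose in both (log2 fold changes 1.31 and 1.36, SE 0.29), yet replicate 2 of each group lay near the same level, 2.18 to 2.99 FPKM.

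Of the 4 members around the pyruvate dehydrogenase complex, the kinase Pdk1 rose, 2 complex subunits fell and 1 did not pass in each comparison, where 47.1% and 48.1% of all tested genes rose and 20.1% and 20.3% fell. Pdk1, a kinase that inhibits the complex and a known HIF-1 target, was at 3.91, 4.20, 3.78, 4.0 and 3.57 FPKM in the control samples, 6.68, 7.60, 7.01, 7.22 and 6.91 in the miR-144 samples and 8.05, 8.98, 7.80, 7.33 and 7.22 in the miR-451a samples. It rose 1.82- and 2.02-fold without overlap with the control group (log2 fold changes 0.72 and 0.86, SE 0.05, adjusted p = 1.07e-08 and 1.45e-09). Pdha1, the catalytic subunit that the kinases phosphorylate, did not pass, with means of 20.7, 21.5 and 21.2 FPKM in the control, miR-144 and miR-451a groups. Under TPM Pdha1 was higher in both comparisons (adjusted p = 0.0240 and 0.0419), and after median centring it was lower in the miR-451a comparison (adjusted p = 0.0263). Pdhb, its partner subunit, fell by 0.17 and 0.16 on the log2 scale, calls that were lost under TPM (adjusted p = 0.0826 and 0.181), and Dlat, the E2 subunit, fell by 0.21 and 0.20. The other kinases and the opposing phosphatases were on the list of further pathway genes, and Pdk2, Pdk3, Pdp2, Pdpr, Pdhx, Dld, Mpc1 and Mpc2 are named here after their values were seen. Pdk4, the kinase induced by fasting, was at 2.32, 1.91, 1.48, 1.59 and 1.62 FPKM in the control samples, 6.15, 6.01, 6.17, 5.36 and 5.07 in the miR-144 samples and 6.83, 6.77, 5.66, 6.87 and 6.47 in the miR-451a samples, a rise of 3.22- and 3.66-fold. Pdk2 rose from a mean of 4.70 FPKM to 5.93 and 6.01 and Pdk3 from 3.63 to 4.61 and 4.41, although neither call of Pdk3 held after median centring (log2 fold changes 0.14 and 0.08, adjusted p = 0.0732 and 0.306) or quantile normalization (adjusted p = 0.0685 and 0.308). Pdp1, the main phosphatase, went the other way, from 10.6, 11, 10.9, 10.6 and 9.87 FPKM to 3.98, 4.27, 4.89, 4.80 and 4.56 in the miR-144 samples and 4.30, 4.25, 4.33, 4.92 and 4.26 in the miR-451a samples, and Pdp2 fell from 6.27 ± 0.202 to 4.77 ± 0.172 and 4.72 ± 0.248. The phosphatase regulator Pdpr rose 1.35- and 1.36-fold, and the complex subunits Pdhx and Dld, the mitochondrial pyruvate carriers Mpc1 and Mpc2, and Pcx, the pyruvate carboxylase, were all lower in both groups (log2 fold changes -0.41 to -0.17). These values are RNA levels, and phosphorylation of the complex was not measured here.

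**Figure D4:**
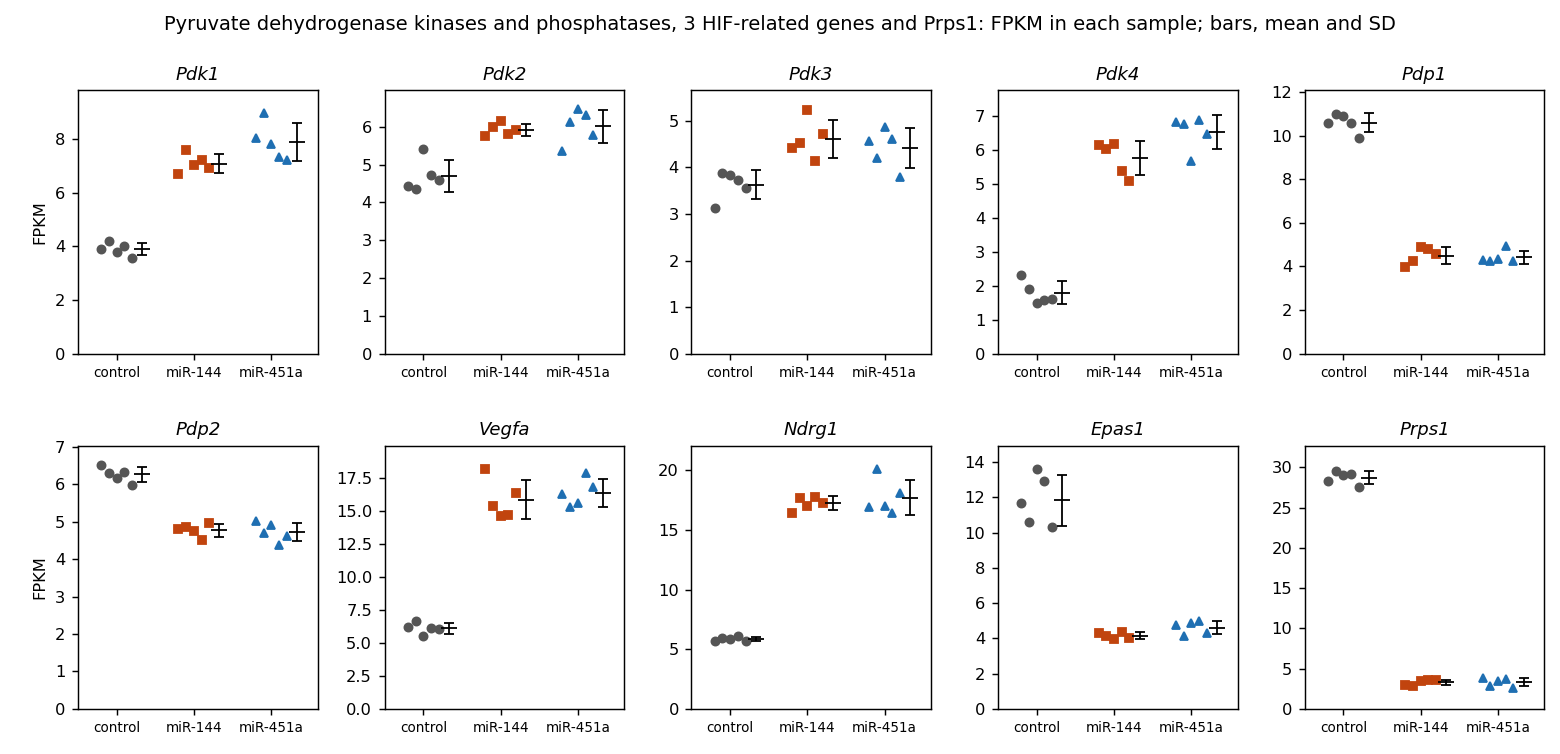
FPKM in each sample of the pyruvate dehydrogenase kinases Pdk1 to Pdk4, the phosphatases Pdp1 and Pdp2, the HIF-related genes Vegfa, Ndrg1 and Epas1, and Prps1, with mean and SD. Pdk1, Pdk4, Vegfa and Ndrg1 were higher in all 10 miRNA samples than in any control sample, and Pdp1, Pdp2, Epas1 and Prps1 were lower in all 10.

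Of the 15 TCA cycle and linked members, 7 fell (46.7%, against 20.1% and 20.3% of all tested genes) and 3 rose in each comparison. Of all tested genes 47.1% and 48.1% rose. Cs, the citrate synthase, was at 34.8, 33.9, 34.3, 33.5 and 34.4 FPKM in the control samples, 28.6, 29.5, 27.9, 27.6 and 29.0 in the miR-144 samples and 29.7, 28.7, 27.7, 27.0 and 28.9 in the miR-451a samples. Its change was small but larger than the spread between samples (log2 fold changes -0.25 and -0.26, SE 0.03, adjusted p = 1.83e-06 and 1.29e-06). Aco1, the cytosolic aconitase, fell from 23.8 ± 0.786 FPKM (SD, n = 5) to 16.3 ± 0.972 and 16.4 ± 0.537. Idh3a, the catalytic subunit of the NAD-dependent isocitrate dehydrogenase, fell from 7.19 ± 0.557 to 4.55 ± 0.141 and 4.42 ± 0.161, whereas its partner subunits Idh3b and Idh3g did not pass (log2 fold changes of at most 0.06 in size). After median centring Idh3b and Idh3g were also lower (-0.11 and -0.19 in the miR-144 group, -0.13 and -0.18 in the miR-451a group), by less than Idh3a (-0.69 and -0.74), while under TPM Idh3b was higher (0.09 and 0.10). Idh1, the cytosolic NADP-dependent enzyme, was at 137, 206, 185, 131 and 214 FPKM in the control samples, 99.6, 136, 124, 120 and 147 in the miR-144 samples and 149, 147, 117, 114 and 153 in the miR-451a samples. Its control samples were widely spread, and it was called lower in the miR-144 comparison (log2 fold change -0.46, SE 0.15, adjusted p = 0.0131), a call that quantile normalization ended (adjusted p = 0.0818). The miR-451a difference of Idh1 was -0.34 (adjusted p = 0.0534), and it passed after median centring (-0.49, adjusted p = 0.00991), with the replicate number as a block (adjusted p = 0.0129) and without control replicate 1 or 4, miR-144 replicate 1 or miR-451a replicate 5 (adjusted p = 0.0147 to 0.0454). It was smaller after quantile normalization (-0.20, adjusted p = 0.278) and under TPM (-0.26, adjusted p = 0.142). Idh2, the mitochondrial NADP-dependent enzyme, rose from 12.4 ± 0.681 FPKM to 14.8 ± 1.34 and 15.7 ± 1.36, but the miR-144 call was lost after median centring (adjusted p = 0.169) and quantile normalization (adjusted p = 0.0522).

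Further along the cycle, Ogdh, the E1 subunit of oxoglutarate dehydrogenase, fell from 40.5 ± 1.14 FPKM to 30.8 ± 1.03 and 31.8 ± 1.09. Dlst, its E2 subunit, did not pass (log2 fold changes -0.21 and -0.18, and -0.05 and -0.01 without control replicate 4), and its control mean of 6.43 FPKM rested on 1 sample at 10.4 where the other 4 were at 5.17 to 5.90. With all samples, Dlst was called lower in both comparisons after median centring (adjusted p = 0.0298 and 0.0403) and quantile normalization. Suclg2, the GTP-specific beta subunit of succinyl-CoA ligase, was at 2.50, 2.62, 2.30, 2.6 and 2.68 FPKM in the control samples, 4.83, 4.82, 5.58, 3.21 and 4.54 in the miR-144 samples and 4.77, 3.15, 5.27, 5.66 and 4.87 in the miR-451a samples. It rose 1.81- and 1.87-fold, and all 10 miRNA samples lay above the control group. Sucla2, the ATP-specific beta subunit, did not pass (7.82, 7.83 and 8.21 FPKM in the control, miR-144 and miR-451a groups), although it was called lower in the miR-144 comparison after median centring (adjusted p = 0.0317) and quantile normalization and higher in the miR-451a comparison under TPM (adjusted p = 0.0289), and Suclg1, the shared alpha subunit, was called lower in the miR-451a comparison (log2 fold change -0.17, adjusted p = 0.0206), a call lost under TPM (adjusted p = 0.158) and without control replicate 2 (adjusted p = 0.0579). The miR-144 difference of Suclg1 was -0.14 (adjusted p = 0.0512), and it passed after median centring (-0.27, adjusted p = 0.000679), quantile normalization (adjusted p = 0.000753), the filter at 5 FPKM (adjusted p = 0.0481), with the replicate number as a block (adjusted p = 0.00968) and without control replicate 3 or miR-144 replicate 1 (adjusted p = 0.0125 and 0.0452). It was smaller under TPM (-0.08, adjusted p = 0.260) and without control replicate 2 (-0.09). Fh1, the fumarase, rose from 10.9 ± 0.362 to 14.7 ± 0.538 and 14.8 ± 0.948 FPKM. Mdh1 and Mdh2, the cytosolic and mitochondrial malate dehydrogenases, both fell, by 0.28 and by 0.50 on the log2 scale in each comparison. Outside the members, the succinate dehydrogenase subunits Sdha, Sdhb, Sdhc and Sdhd each fell (log2 fold changes -0.18 to -0.36), and so did Acly, the ATP citrate lyase that makes cytosolic acetyl-CoA (-0.33 and -0.36).

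Of the 4 pentose phosphate members, 2 rose, 1 fell and 1 did not pass in each comparison. Over all tested genes 47.1% and 48.1% rose and 20.1% and 20.3% fell. G6pdx, which encodes glucose 6-phosphate dehydrogenase and opens the oxidative branch, was at 75.7, 72.7, 69.7, 67.8 and 75.7 FPKM in the control samples, 86.4, 85.8, 79.3, 78.5 and 92.3 in the miR-144 samples and 81.6, 83.6, 77.5, 76.5 and 87.4 in the miR-451a samples. All 10 miRNA samples were above the control samples. The rises of G6pdx (log2 fold changes 0.22 and 0.17, SE 0.05) and of Pgd, the other NADPH-producing step (0.22 and 0.21, SE 0.06), were near the shift of the median gene, and both were lost after median centring (adjusted p = 0.155 and 0.719 for G6pdx, 0.226 and 0.368 for Pgd). Tkt, the transketolase of the non-oxidative branch, fell from 60.6 ± 2.28 FPKM (SD, n = 5) to 46.1 ± 2.93 and 44.8 ± 2.67, and Taldo1, the transaldolase, did not pass at 81.8, 77.6 and 77.5 FPKM in the control, miR-144 and miR-451a groups, although after median centring it was lower in both comparisons (-0.21 and -0.22, adjusted p = 0.000348 and 0.000209). The further pathway gene that fell the most was Prps1, which makes the nucleotide precursor phosphoribosyl pyrophosphate from ribose 5-phosphate. It was at 28.3, 29.5, 29.0, 29.2 and 27.6 FPKM in the control samples, 2.90, 2.87, 3.41, 3.60 and 3.54 in the miR-144 samples and 3.86, 2.88, 3.49, 3.64 and 2.64 in the miR-451a samples. The control mean was 8.80 and 8.69 times the miRNA means (log2 fold changes -2.80, SE 0.08). Its paralog Prps2, named here after its values were seen, rose from 5.62 ± 0.414 to 8.34 ± 0.609 and 8.47 ± 0.451 FPKM. Eno2, the neuronal enolase on the same list, fell from 7.46, 7.27, 7.74, 7.91 and 7.78 FPKM to 2.85, 2.40, 2.31, 1.96 and 2.53 in the miR-144 samples and 2.27, 2.48, 1.76, 2.03 and 2.69 in the miR-451a samples.

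Acod1, the enzyme that makes itaconate from cis-aconitate, had the largest ratio of mean FPKM between the control and miRNA groups of all members. It was at 12.9, 14.7, 15.1, 14.2 and 11.7 FPKM in the control samples, 2.88, 3.24, 2.48, 2.04 and 3.73 in the miR-144 samples and 3.33, 2.73, 1.53, 1.61 and 3.28 in the miR-451a samples. The lowest control sample was above every miRNA sample, and the control mean was 4.77 and 5.49 times the miRNA means (log2 fold changes -1.94 and -2.11, SE 0.16, adjusted p = 4.10e-08 and 1.46e-08, limma).

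Hif1a, the oxygen-regulated subunit of HIF-1, was at 13.8, 14.2, 13.3, 13.8 and 13.1 FPKM in the control samples, 19, 19.5, 18.0, 16.2 and 19.1 in the miR-144 samples and 19, 17.7, 18.3, 19.1 and 17.3 in the miR-451a samples. It rose 1.34-fold in both groups without overlap (log2 fold changes 0.40 and 0.39, SE 0.05, adjusted p = 1.83e-06 and 1.99e-06). HIF-1 is regulated mainly through the stability of the Hif1a protein, which was not measured here. Among the listed HIF pathway genes outside the enzymes, 11 of 20 rose (55.0%) and 3 fell in each comparison, near the shares over all tested genes (47.1% and 48.1% higher, 20.1% and 20.3% lower). After median centring 7 of the 20 were higher and 5 lower in each. Under that scaling 30.8% and 31.3% of all tested genes were higher and 30.7% and 31.8% lower. Vegfa, the angiogenic growth factor, was at 6.23, 6.69, 5.51, 6.12 and 6.05 FPKM in the control samples, 18.2, 15.4, 14.6, 14.7 and 16.4 in the miR-144 samples and 16.3, 15.3, 15.6, 17.9 and 16.8 in the miR-451a samples (2.59- and 2.68-fold). Ndrg1, a stress-responsive gene, was at 5.69, 5.95, 5.88, 6.13 and 5.70 FPKM in the control samples, 16.4, 17.7, 17, 17.8 and 17.3 in the miR-144 samples and 16.9, 20.1, 17, 16.4 and 18.1 in the miR-451a samples (2.94- and 3.01-fold). Epas1, which encodes HIF-2alpha, fell from 11.7, 10.6, 13.6, 12.9 and 10.3 FPKM to 4.32, 4.15, 3.93, 4.33 and 3.99 in the miR-144 samples and 4.78, 4.12, 4.86, 4.98 and 4.30 in the miR-451a samples.

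Over all lists of further pathway genes, 79 of 100 genes passed the filter. In the miR-144 group 33 were higher (41.8%) and 27 lower (34.2%), where 47.1% and 20.1% of all tested genes were. In the miR-451a group 35 were higher (44.3%) and 29 lower (36.7%), where 48.1% and 20.3% of all tested genes were. After median centring these splits became 22 higher and 35 lower, and 24 higher and 35 lower, where 30.8% and 31.3% of all tested genes were higher and 30.7% and 31.8% lower.

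Promoter sequence was read for the core of the element that HIF-1 binds. RefSeq windows from 250 bases before to 50 bases after a start were found for 45 of the 46 symbols, 65 windows in all. The core of the hypoxia response element, ACGTG or GCGTG on either strand, occurred in 50 of them (76.9%) and in 43.8% of all 32851 windows, and the members' windows were richer in GC (59.8% against 53.8%). It was found in 16 of 21 windows of members higher in both comparisons (76.2%) and in 26 of 31 windows of members lower in both (83.9%). The E-box CACGTG, which contains the core, occurred in 10.8% of the member windows and in 7.15% of all windows. The 250 bases before a start of 3 genes that fell (Ldha, Hk3 and Acod1) and of 1 that rose (Pdk1) are shown with the core on either strand in capitals, 5′ to 3′ along the gene (GRCm38.p6). Where a gene had several windows, the one with the most core matches was chosen, so the match counts below are raised by that choice. Ldha, at chr7:46845554-46845803 on the plus strand, held 5 matches in 3 stretches, since each CACGTG matches on both strands, and Hk3 (chr13:55021386-55021635, minus strand), Acod1 (chr14:103046762-103047011, plus strand) and Pdk1 (chr2:71872974-71873223, plus strand) held 1 each. A match describes the sequence only.
Ldha: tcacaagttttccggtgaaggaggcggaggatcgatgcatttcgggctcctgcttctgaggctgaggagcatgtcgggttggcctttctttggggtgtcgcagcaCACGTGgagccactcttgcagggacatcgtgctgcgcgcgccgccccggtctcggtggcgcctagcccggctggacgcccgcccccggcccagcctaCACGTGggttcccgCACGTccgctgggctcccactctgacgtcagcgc
Hk3: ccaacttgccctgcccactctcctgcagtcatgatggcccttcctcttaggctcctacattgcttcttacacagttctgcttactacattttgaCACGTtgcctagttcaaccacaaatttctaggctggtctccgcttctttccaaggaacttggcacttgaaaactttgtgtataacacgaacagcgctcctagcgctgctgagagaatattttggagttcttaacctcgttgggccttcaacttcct
Acod1: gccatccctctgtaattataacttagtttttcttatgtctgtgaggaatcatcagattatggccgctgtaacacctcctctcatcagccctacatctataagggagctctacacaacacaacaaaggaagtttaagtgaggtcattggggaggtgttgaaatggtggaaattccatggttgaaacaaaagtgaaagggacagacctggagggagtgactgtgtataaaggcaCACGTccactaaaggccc
Pdk1: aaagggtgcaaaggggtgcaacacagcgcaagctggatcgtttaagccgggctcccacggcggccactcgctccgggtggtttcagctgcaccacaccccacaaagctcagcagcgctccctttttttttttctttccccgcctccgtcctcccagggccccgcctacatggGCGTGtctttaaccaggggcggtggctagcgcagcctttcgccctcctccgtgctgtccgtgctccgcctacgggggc

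The miR-451a group was then compared with the miR-144 group. None of the 46 members passed, and 0% of the 11419 tested genes did (limma, smallest adjusted p over all genes 0.0752), while 596 genes and 1 member had an unadjusted p under 0.05. That member was Pdk1, which was higher in the miR-451a group (log2 difference 0.13, 95% interval 0.02 to 0.25, adjusted p = 0.946). The narrowest 95% interval among the members was that of Idh3b, -0.06 to 0.06, and the widest that of Acod1, -0.51 to 0.17. That of Cs was -0.07 to 0.06. Hk3 had an interval of -0.13 to 0.03 and Hif1a one of -0.10 to 0.09. A difference of the size seen against control lay outside these intervals for Hk3, Pfkm (-0.03 to 0.15) and Hif1a. For Idh3b, whose difference from control was 0.02 in both comparisons, it lay inside. These are examples, and no count over the members was made. The comparisons of both miRNA groups with control share the same 5 control samples, so their likeness is not independent of those samples.

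Within the miRNA groups the same samples were low for many members. In the miR-144 group, replicates 3 and 4 were the lowest pair of samples for 22 of 46 members (47.8%), including Pkm, where they were the lowest pair for 17.7% of all tested genes. In the miR-451a group the same numbers were the lowest pair for 16 of 46 members (34.8%) and for 18.0% of all tested genes. In the control group no pair of replicates was lowest for more than 7 members, and replicates 3 and 4 were the lowest pair for 7 of 46 (15.2%) and for 18.4% of all tested genes. The pattern was noticed after the values were seen and was not tested, and the numbers do not say that these samples shared a mouse or a day.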

How the data were processed

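FPKM values per gene were deposited by the authors for 15 samples of sorted TAMs, 5 in each of 3 groups. Illumina reads were handled with FastQC 0.11.2, STAR and StringTie per the submitters' processing notes, and the genome build and annotation are not given in the sources used here. Gene counts were not used here, and depth was inferred from regular spacing among low FPKM values, of which 42.1% to 53.8% lay within 0.05 of a whole multiple of the value of 1 fragment. FPKM depends on the other transcripts of a sample, so scaling was varied.

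Groups came from the sample labels. Values were tested as log2(FPKM + 1) with limma 3.58.1 (R 4.3.3) with a mean-variance trend, all 3 groups in 1 fit, over the 11419 genes that averaged 1 FPKM or more. Benjamini-Hochberg adjustment ran over all of them, and the threshold was 0.05. Intervals are 95% intervals from limma's t quantiles. Genes under the filter came from a fit of the 29540 genes above 0 in a sample. A fold change on this scale understates the change of low genes. Isozyme percentages were compared by a two-sided exact permutation test (scipy 1.17.1). The limma fit was checked on simulated data. Alternatives were no filter, a filter at 5 FPKM, a pseudocount of 0.1 FPKM, TPM, quantile normalization, median centring, a fit without the trend, a fit of the compared groups alone, a fold minimum of 0.5 on the log2 scale, a replicate block and leaving out each sample.

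The members and lists were chosen with earlier results of these data known. Values in every sample are given for the 6 members with the largest rises, the 6 with the largest falls and 12 fixed by name, some of which are also among those. Of the further pathway genes, those fixed by name, except 1 that is not reported here, and the 8 with the largest changes are named, and any others were named after their values were seen. Shared sequence was counted as 50-base stretches against GENCODE M21 (GRCm38), and miRNA and promoter sequences are from RefSeq (GRCm38.p6).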

Additional observations from a re-analysis of the deposited data

Results flagged for a closer look

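Among the 141 groups of 5 samples, 1 group for each member row and condition, 8 held a sample that stood apart from the rest of its group by Dixon's criterion (0.71), where chance at 1 in 20 gives 7.05. In the control group these were Dlst in replicate 4 (10.4 FPKM, next 5.90), Mdh1 in replicate 4 (42.4 FPKM, next 36.6), Pfkl in replicate 3 (8.56 FPKM, next 7.38), Pfkfb3 in replicate 5 (8.80 FPKM, next 4.99) and Eno1 in replicate 2 (70.3 FPKM, next 73.5). In the miR-451a group they were Mdh2 in replicate 5 (28.5 FPKM, next 26.3), Mdh1 in replicate 2 (34.5 FPKM, next 30.1) and Taldo1 in replicate 4 (73.1 FPKM, next 78.2). No miR-144 group of a member held such a sample.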

How the results depend on the processing

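The count of called members, 37 against the miR-144 group and 36 against the miR-451a group, stayed within 1.5 times under every alternative except a minimum log2 fold change of 0.5, which left 15 and 17. That minimum left 2602 and 2794 of all genes and 21 and 24 of the further pathway genes, and a minimum mean of 5 FPKM, which tests fewer genes, left 4776 and 4821 of all genes and, in the miR-451a comparison, 41 of the further pathway genes. Leaving out 1 sample gave 36 to 38 members in either comparison with control. Between the miRNA groups it gave 0 to 2 of all genes, 0 to 1 of the further pathway genes (Bsg, -0.41, adjusted p = 0.00602, without miR-144 replicate 4) and 0 to 1 isozyme percentages (1 without miR-451a replicate 4). The cause was not tested. Among members, differences that changed sign were those that did not pass on the deposited scale. With median centring they were Sucla2 (-0.13 and -0.08 in the miR-144 and miR-451a comparisons), Idh3b (-0.11 and -0.13), Pdha1 (-0.08 and -0.11) and, in the miR-451a comparison, Tpi1 (-0.12). With quantile normalization they were Sucla2 (-0.13 and -0.08), Idh3b (-0.02 in both), Tpi1 in the miR-144 comparison (0.03) and Pdha1 in the miR-451a comparison (-0.02). With TPM they were Idh3g (0.01 and 0.04), Tpi1 in the miR-144 comparison (0.06) and Taldo1 in the miR-451a comparison (0.00). Without 1 sample, Sucla2 ranged from -0.02 to 0.03 and Tpi1 from -0.03 to 0.01 in the miR-144 comparison.

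Replicate numbers did not meet the criterion for pairing, a correlation over 0.1 in every pair, and whether same-numbered samples share an origin is not known. The mean correlation of same-numbered samples' deviations was -0.0122, 0.140 and 0.101 for miR-144 with control, miR-451a with control and miR-451a with miR-144, over 0.1 in 1, 3 and 4 of 5 pairs, and not every sample matched its own number best. With the replicate block, 39, 38 and 0 members, 7711, 7859 and 0 of all genes and 60, 63 and 0 of the further pathway genes were called in these comparisons. Isozyme percentages gave 11, 11 and 0 calls without the block and 0 in a paired exact sign-flip test, whose smallest p with 5 pairs is 0.0625.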

Other observations

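Genes around glutamate and citrate, described here after their values were seen, also moved in both directions. Glul, the glutamine synthetase, was at 48.2, 51.3, 51.0, 51.0 and 50.7 FPKM in the control samples, 94.3, 83.3, 109, 113 and 81.7 in the miR-144 samples and 85.1, 82.3, 108, 116 and 73.8 in the miR-451a samples. It rose 1.91- and 1.84-fold (log2 fold changes 0.91 and 0.85, adjusted p = 6.41e-06 and 1.19e-05, limma), and replicates 3 and 4 were here the highest of both miRNA groups. Glud1, the glutamate dehydrogenase, rose from a mean of 59.0 FPKM to 71.3 and 73.2. Slc25a1, the mitochondrial citrate carrier, fell from 39.8 to 27.5 and 25.6 FPKM, and Got1, the cytosolic aspartate aminotransferase, fell from 30.0 to 20.9 and 20.7. Pck2, the mitochondrial phosphoenolpyruvate carboxykinase, rose from 2.74 to 6.80 and 6.96 FPKM.

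The mitophagy receptors Bnip3 and Bnip3l, both known HIF targets, went opposite ways. Bnip3l fell from a mean of 61.4 FPKM to 28.9 and 29.4, and Bnip3 rose from 6.38 to 10.1 and 11. Bsg, the chaperone of the lactate transporters, was at 109, 103, 108, 110 and 107 FPKM in the control samples, 104, 95.8, 89.2, 69.5 and 99.8 in the miR-144 samples and 71.3, 67.7, 72.4, 78.5 and 72.8 in the miR-451a samples. Its difference between the miRNA groups did not pass (log2 difference -0.32, adjusted p = 0.775), and the miR-144 sample at 69.5 lay within the miR-451a range. Its miR-144 difference from control (-0.24, adjusted p = 0.0175) was lost under TPM (adjusted p = 0.0658).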
